A study of Mus musculus with 8 samples.

Results

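Lysosome and autophagy genes were followed through the first 2 days of adipogenic induction in mouse 3T3L1 preadipocytes. The 41 genes were taken by name from the 46073 genes of the expression table: 8 cathepsins, 9 other lysosomal hydrolases and their partners, 4 lysosomal membrane proteins, 4 proton pump genes, 2 transcription factors, 3 autophagy receptors, 4 genes of the Atg8 family and 7 genes of autophagosome formation. Of these, 40 passed the filter of at least 1 FPKM in at least 2 libraries, and Ctss did not. FPKM, fragments scaled to transcript length and to the mapped total of the library, is the deposited unit.

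3T3L1 is a fibroblast-like preadipocyte line that stores fat after a cocktail of dexamethasone, IBMX and insulin. The 4 groups of 2 libraries were Ddx6-KO cells at day 2, Ddx6-KO cells at day 0, TOM cells at day 2 and TOM cells at day 0. Ddx6-KO cells carried a Cas9 lentivirus with a guide against Ddx6, an RNA helicase of processing bodies. The TOM cells, which serve as mock transfectants, carried the same vector with a guide against tdTomato, so Cas9, the lentivirus and puromycin selection were shared by all groups. Single cells were cloned after selection, and a line may therefore be 1 clone, so an effect of the guide and a difference between clones cannot be told apart. The titles separate day 0 from day 2, while a treatment note common to all samples places harvest after induction, and the titles were used.

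The lysosome is the acidic compartment in which proteins, lipids and glycans are broken down. Its hydrolases are delivered through the secretory pathway, and a proton pump keeps its lumen acidic. In autophagy, cytoplasm is enclosed in a double membrane that carries Atg8-family proteins and then fuses with the lysosome. Tfeb and Tfe3, basic helix-loop-helix factors, bind an E-box motif in the promoters of many lysosomal genes.

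The RNA of the targeted gene was not lower in the libraries labelled Ddx6-KO. Ddx6 had 50 and 43.0 FPKM in the libraries labelled Ddx6-KO at day 2, against 28.8 and 28.4 FPKM in TOM libraries. At day 0, it had 27.2 and 31.9 FPKM in those labelled Ddx6-KO, against 11.3 and 19.9 FPKM in TOM. By limma, Ddx6-KO minus TOM was 0.68 on the log2 scale at day 2 (adjusted p = 0.0989) and 0.93 at day 0 (adjusted p = 0.0554), each with a standard error of 0.25. Neither difference passed the threshold, and RNA over the whole gene does not test for a short deletion. The paper reports loss of Ddx6 protein in its knockout cells by western blotting, which these RNA levels do not measure. The groups are named below by their labels.

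Depth read from the spacing of low values was about 21400000 fragments in TOM day 0 library 1 and 1500000 to 5600000 in the other 7 libraries. Small RNAs took 36.7% to 53.3% of summed FPKM, so a level is a share that other genes can move. Preadipocyte and fibroblast markers summed to 2377 to 2468 FPKM in libraries labelled Ddx6-KO at day 2, 2070 to 2150 in Ddx6-KO at day 0, 2278 to 2323 in TOM at day 2 and 2973 to 2999 in TOM at day 0. Adipocyte markers summed to 25.4 to 34.3 FPKM in Ddx6-KO at day 2, 44.6 to 47.6 in Ddx6-KO at day 0, 711 to 717 in TOM at day 2 and 229 to 257 in TOM at day 0. The 14 macrophage markers, which matter because macrophages are rich in lysosomes, summed to 13.4 to 14.1 FPKM in Ddx6-KO at day 2, 20.97 to 23.95 in Ddx6-KO at day 0, 6.64 to 12.2 in TOM at day 2 and 14.7 to 24.3 in TOM at day 0. Of these markers, 2 or 3 reached 1 FPKM in both libraries of a group, and Tyrobp was at 0 in all libraries but TOM day 0 library 1 (0.117 FPKM). Mpeg1 had 5.84 and 5.35 FPKM in TOM at day 0 and at most 1.17 FPKM in any other library. Of the 7 tested, 1 was higher and 1 lower in Ddx6-KO at day 0 by limma (adjusted p under 0.05), against 6.55% and 4.81% of all genes. During induction, 1 fell in each line, against 3.74% in TOM and 5.85% in Ddx6-KO. The difference of changes was higher for 1, against 2.02%. None of 5 osteoclast markers reached 1 FPKM in both libraries of any group. The preadipocyte sum, like part of the lysosomal genes below, was highest in TOM at day 0, though its genes did not all go the same way. Of the 9 tested, 5 were lower and 1 higher in Ddx6-KO at day 0 by limma (adjusted p under 0.05). Among all genes tested, 4.81% were lower and 6.55% higher. The median log2 difference of the 9 was -0.998, with 4 above 0 and 5 below. Dlk1 had 70.3 and 57.0 FPKM in Ddx6-KO at day 0, against 358 and 616 in TOM. Pdgfrb had 51.2 and 48.0 FPKM, against 23.4 and 22.8 in TOM. The part of cell composition in the differences of the lysosomal genes was not tested. In bulk RNA, fewer cells of a type and less RNA per cell cannot be told apart.

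At day 0, part of the lysosomal genes were lower in the libraries labelled Ddx6-KO than in TOM. Of the 24 lysosomal genes tested (cathepsins, other hydrolases, membrane proteins and proton pump), 10 were lower and 0 higher by limma (called, at an adjusted p under 0.05), and 13 and 1 at an unadjusted p under 0.05, while 5 of the 24 had a log2 difference above 0. Of 14 autophagy genes, 2 were higher and 0 lower (2 and 1 unadjusted). Among all 15811 genes tested, 4.81% were lower and 6.55% higher in this comparison, or 11.6% lower and 14.4% higher unadjusted. The set had 12 calls in all, 6 when either day 0 library of Ddx6-KO was dropped (each in turn, here and below) and 7 when library 1 of TOM at day 0 was dropped.

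During induction, 2 lysosomal genes fell and 1 rose in the libraries labelled Ddx6-KO, with 5.85% of all genes lower and 4.80% higher, a share near that background. In TOM cells, 9 lysosomal genes fell and 0 rose (18 and 0 unadjusted), against a background of 3.74% lower and 3.40% higher, or 9.99% and 10.7% unadjusted. The 4 calls of the set in Ddx6-KO became 2 without either Ddx6-KO day 0 library.

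The change during induction differed between the lines for 7 lysosomal genes and 1 autophagy gene, all 8 with a higher value in Ddx6-KO, and 2.02% of all genes were called in that direction and 2.17% in the other. This count was the least stable, and it includes Ctsk, whose low start in Ddx6-KO left no room for a fall as large as in TOM. Dropping library 1 of Ddx6-KO at day 0 gave 1, and dropping library 2 of that pair gave 0 (11 higher and 2 lower at an unadjusted p under 0.05, against 7.26% and 6.79% of all genes). Among day 2 libraries, the count was 2 without library 1 of Ddx6-KO, 4 without library 2 of Ddx6-KO and 2 without either library of TOM. For the TOM day 0 pair it was 3 without library 1 and 7 without library 2. Over 18 alternatives, the call was made in 16 for Hexa, 13 for Ctsk, 7 each for Ctsa and Ctsd, and 5 each for Lamp1, Scarb2, Tcirg1 and Gabarapl1. Between the lines at day 2, 4 of the 40 were higher in Ddx6-KO and 2 lower, with backgrounds of 10.4% and 8.58%, and 3 were called without TOM day 2 library 1. These 5 comparisons share libraries, among them the TOM day 0 pair, so their counts are not separate evidence. With 2 libraries a group, pairs without overlap were common over all genes tested. Between the lines, 30.9% were higher in Ddx6-KO without overlap and 25.6% lower at day 0, and 33.2% and 24.9% at day 2. During induction, 30.9% were higher without overlap and 23.6% lower in Ddx6-KO, and 25.5% and 22.8% in TOM.

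**Figure D1:**
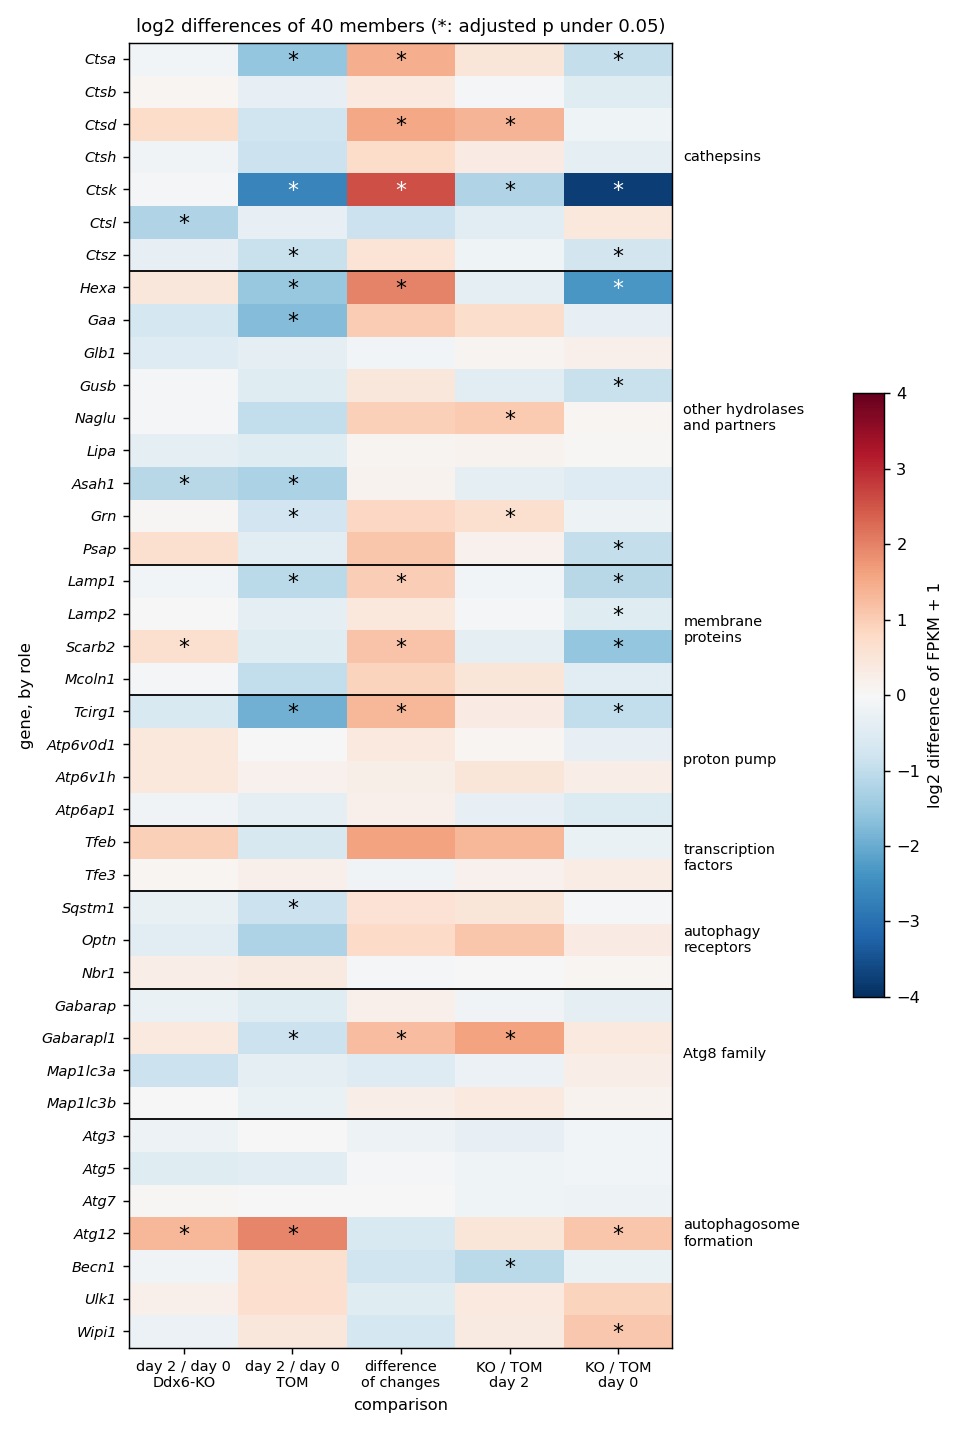
The heat map shows the log2 difference of FPKM + 1 for the 40 genes tested (rows, grouped by role) in 5 comparisons (columns), red for higher and blue for lower, with an asterisk at an adjusted p under 0.05. In the rows of lysosomal genes, 9 asterisks in the TOM induction column and 10 in the day 0 column stand on blue, and none in those columns on red.

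In all, 21 of the 40 genes were called in at least 1 comparison and 19 in none. The share of all genes called in at least 1 comparison was not computed, so this tally cannot be read as a result. Between the lines at day 2 alone, 10.4% of all genes were called higher and 8.58% lower. The medians of the lysosomal genes separated from those of all genes in the same comparisons as the counts of single comparisons above. For Ddx6-KO minus TOM at day 0, the median log2 difference was -0.48 for the 24 lysosomal genes, 0.11 for the 14 autophagy genes and 0.05 for all genes tested. For day 2 minus day 0 in the libraries labelled Ddx6-KO, the median was -0.08 for lysosomal genes, -0.18 for autophagy genes and 0.09 for all genes. The same change in TOM cells had medians of -0.79 for lysosomal, -0.13 for autophagy and 0.03 for all genes. The difference of the changes had a median of 0.78 for lysosomal, -0.07 for autophagy and 0.04 for all genes. At day 2, Ddx6-KO minus TOM had medians of 0.09, 0.19 and 0.11 for these sets, close together.

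Scaling moved these medians and some of the counts. When protein-coding genes alone were rescaled to a common total, the median of all genes shifted to -0.51 for the difference of changes, -0.44 for Ddx6-KO minus TOM at day 2, -0.33 for the Ddx6-KO change and 0.17 for the TOM change. TPM rescaling, with the values of each library set to 1 common sum, gave -0.19 for the Ddx6-KO change and -0.14 for the TOM change. Relative to the median of all genes, the lysosomal median stayed between -0.27 and -0.08 for the Ddx6-KO change, between -0.88 and -0.80 for the TOM change and between 0.74 and 0.80 for the difference of changes over the 5 scalings tried. For Ddx6-KO minus TOM, it stayed between -0.57 and -0.49 at day 0, and at day 2 it took both signs, between -0.16 and 0.16. The autophagy median for the TOM change, -0.13 as deposited, was 0.03 with protein-coding genes rescaled. That scaling also turned the calls for the difference of changes into 1 higher and 2 lower, against 8 and 0 as deposited, and those at day 2 into 1 higher and 10 lower, against 4 and 2. TPM rescaling turned the 2 higher and 2 lower calls of the Ddx6-KO change into 1 and 10, and quantile normalization the day 2 calls into 7 higher and 2 lower.

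**Figure D2:**
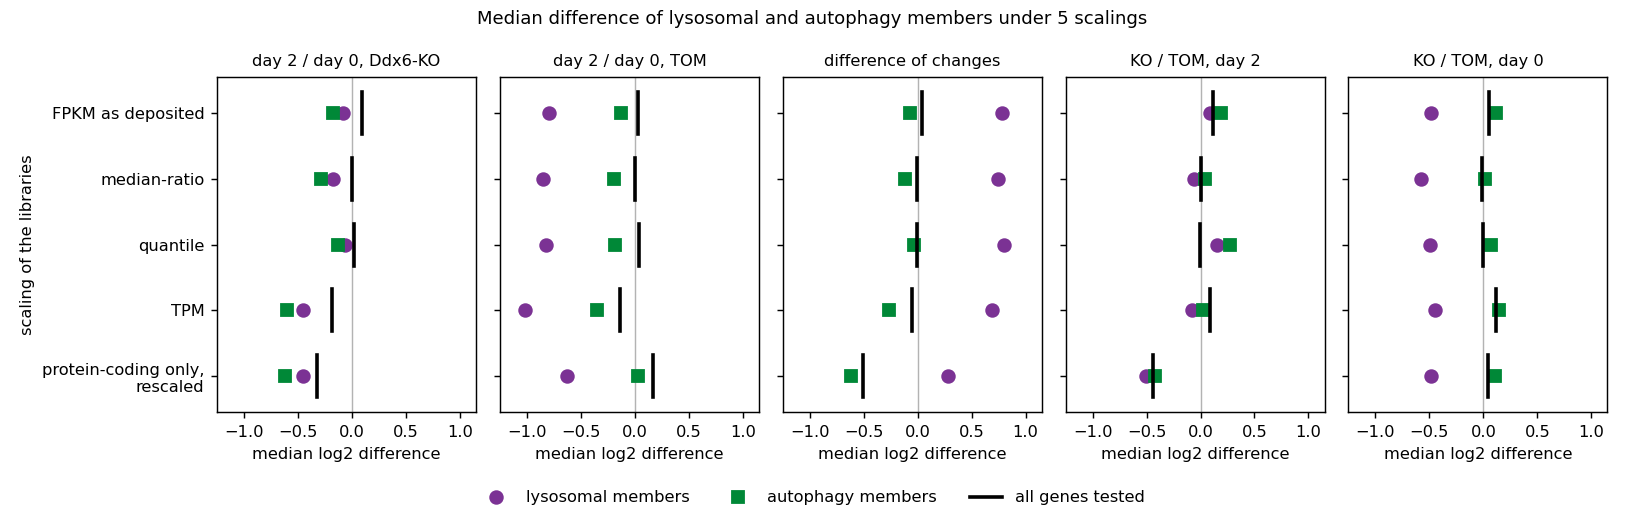
Each panel is a comparison, with the median log2 difference on the horizontal axis and the scaling of the libraries on the vertical axis; circles are the 24 lysosomal genes, squares the 14 autophagy genes and black bars all genes tested. The circles stand left of the bars in the TOM induction and day 0 panels and right of them in the difference of changes under all 5 scalings.

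Cathepsins are the proteases of the lysosome, and their levels ran from below 1 FPKM (Ctss, Ctsk in libraries labelled Ddx6-KO) to 386 FPKM (Ctsd). Ctsk, a collagen-degrading cysteine protease best known from osteoclasts, had the largest differences of the 40 genes in the TOM change, the difference of changes and the day 0 comparison. It lies at chr3:95499256-95509362 (GRCm38, plus strand). It had 0.992 and 0.581 FPKM in the libraries labelled Ddx6-KO at day 2 and 0.904 and 0.818 FPKM in those at day 0. TOM libraries had 2.1 and 4.34 FPKM at day 2 and 23.4 and 25.4 FPKM at day 0. All 4 libraries labelled Ddx6-KO were below all 4 of TOM, and the TOM day 2 pair was far below the TOM day 0 pair.

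Ctsk was 13.6-fold lower in Ddx6-KO at day 0 on the log2(FPKM + 1) scale (log2 difference -3.77, standard error 0.30, adjusted p = 0.000625) and fell 6.23-fold during induction in TOM cells (log2 -2.64, standard error 0.30, adjusted p = 0.00224). This scale understates folds at low values. By approximate fragments, 11 in the libraries labelled Ddx6-KO against 793 in TOM at day 0, the ratio relative to depth was 0.0378 (exact 95% interval 0.0188 to 0.0680, counting error only). The 2 libraries of a group were pooled, and about 676 of the 793 fragments came from TOM day 0 library 1 and 117 from library 2. The TOM day 0 side of these ratios therefore rests mainly on 1 library. In the libraries labelled Ddx6-KO, 4 fragments at day 2 against 11 at day 0 gave a ratio of 0.807 (0.187 to 2.72), so a change there was not detectable at this depth. For the TOM change, 23 fragments at day 2 against 793 at day 0 gave a ratio of 0.138 (0.0872 to 0.209). From below 1 FPKM at day 0, Ctsk in Ddx6-KO had no room on the log2(FPKM + 1) scale for a fall as large as in TOM. Given the TOM fall, the difference of changes was bound to be above 0, so its call does not show a different response of the lines. The difference of changes was 2.57 (standard error 0.42, adjusted p = 0.0186), and it lost its call when any 1 of the 4 day 0 libraries was left out (adjusted p up to 0.0836) or with a pseudocount of 0.1 (2.81, adjusted p = 0.0548). At day 2, Ctsk was lower in Ddx6-KO (log2 -1.20, standard error 0.30, adjusted p = 0.0319; 4 fragments against 23, ratio 0.221, interval 0.0555 to 0.646), a call that held without TOM day 2 library 1 and failed without each of the other 7 (adjusted p up to 0.129). The value of Ctsk depended on the pseudocount: at day 2 it was -1.86 with 0.1 and -0.49 with 5 (adjusted p = 0.0624), and at day 0 -4.67 with 0.1 and -2.32 with 5. The osteoclast markers Acp5, Dcstamp, Calcr, Ocstamp and Oscar summed to at most 2.68 FPKM in a library.

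Ctsa encodes cathepsin A, a carboxypeptidase that also protects the lysosomal galactosidase and neuraminidase. The gene (chr2:164832873-164841032, plus strand) had 88.7 and 75.0 FPKM in the libraries labelled Ddx6-KO at day 2 and 93.4 and 81.9 FPKM in those at day 0. TOM libraries had 65.1 and 50.9 FPKM at day 2 and 192 and 152 FPKM at day 0. The TOM day 0 pair stood above the other 6 libraries, and the 2 pairs labelled Ddx6-KO overlapped. During induction, the log2 difference of Ctsa was -0.10 in Ddx6-KO (adjusted p = 0.788), and it fell 2.94-fold in TOM cells (log2 -1.55, standard error 0.19, adjusted p = 0.00303). The 2 changes differed by 1.46 (standard error 0.26, adjusted p = 0.0267), and Ctsa was lower in Ddx6-KO at day 0 (log2 -0.96, standard error 0.19, adjusted p = 0.0191). The difference of changes was called with 2 of 8 libraries left out (library 2 of Ddx6-KO at day 2, library 2 of TOM at day 0) and failed without each of the other 6 (adjusted p up to 0.125). The day 0 call failed without either Ddx6-KO day 0 library or TOM day 0 library 1 (adjusted p up to 0.134). An exon of Ctsa overlaps Pltp on the opposite strand, which reached 36.97 FPKM, and reads of the pair cannot be told apart if strand was not used in counting.

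Ctsd encodes cathepsin D, the main aspartic protease of lysosomes, and reached the highest FPKM of the set. It lies at chr7:142375911-142388038 (minus strand) and shares exon bases with Gm49369 on its own strand, so its level is uncertain to that extent. It had 342 and 386 FPKM in the libraries labelled Ddx6-KO at day 2 and 236 and 198 FPKM in those at day 0. TOM libraries had 133 and 148 FPKM at day 2 and 295 and 205 FPKM at day 0. Day 2 was above day 0 in Ddx6-KO and below it in TOM, and at day 0 the lines overlapped. At day 2, Ctsd was 2.58-fold higher in Ddx6-KO (log2 1.37, standard error 0.20, adjusted p = 0.00473), a call that 18 of 19 alternative settings also gave. Its changes differed by 1.55 (standard error 0.28, adjusted p = 0.0255), although neither change passed alone (log2 0.75, adjusted p = 0.0551 in Ddx6-KO and -0.81, adjusted p = 0.0552 in TOM). The difference held when either TOM day 0 library was left out and failed without each of the other 6 libraries (adjusted p up to 0.121).

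Ctsl and Ctsz completed the cathepsins that were called. Ctsl, a cysteine endopeptidase whose exons overlap Gm49230 on the same strand, had 173 and 160 FPKM in the libraries labelled Ddx6-KO at day 2 and 382 and 380 FPKM in those at day 0, and 227 and 225 FPKM in TOM at day 2 and 313 and 261 FPKM in TOM at day 0. It was the cathepsin that fell in Ddx6-KO (2.29-fold, log2 -1.19, standard error 0.13, adjusted p = 0.00215, called in all 19 alternative settings), while its log2 difference in TOM was -0.34 (adjusted p = 0.205). The difference of these changes, -0.86, missed the threshold (standard error 0.19, adjusted p = 0.0542). Ctsz, a carboxypeptidase, had 29.3 and 25.4 FPKM in Ddx6-KO at day 2 and 35.3 and 33.9 FPKM at day 0, against 28.8 and 33.2 FPKM in TOM at day 2 and 61.0 and 55.6 FPKM at day 0. The TOM day 0 pair was again the highest. Ctsz fell in TOM (log2 -0.89, standard error 0.15, adjusted p = 0.0112) and was lower in Ddx6-KO at day 0 (log2 -0.74, standard error 0.15, adjusted p = 0.0202). The TOM call failed without library 1 of TOM at either time (adjusted p up to 0.0856), and the day 0 call without either Ddx6-KO day 0 library or TOM day 0 library 1 (adjusted p up to 0.134).

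Of the remaining cathepsins, Ctsb ran from 49.7 to 77.2 FPKM and Ctsh from 0.472 to 3.38 FPKM over the 8 libraries, with no call in any comparison. Ctss, a protease of antigen-presenting cells, was at 0 in 4 libraries and at most 1.122 FPKM, about 3 fragments or fewer in every library. A count of 0 allows up to 3 fragments, so Ctss could not be compared between groups.

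**Figure D3:**
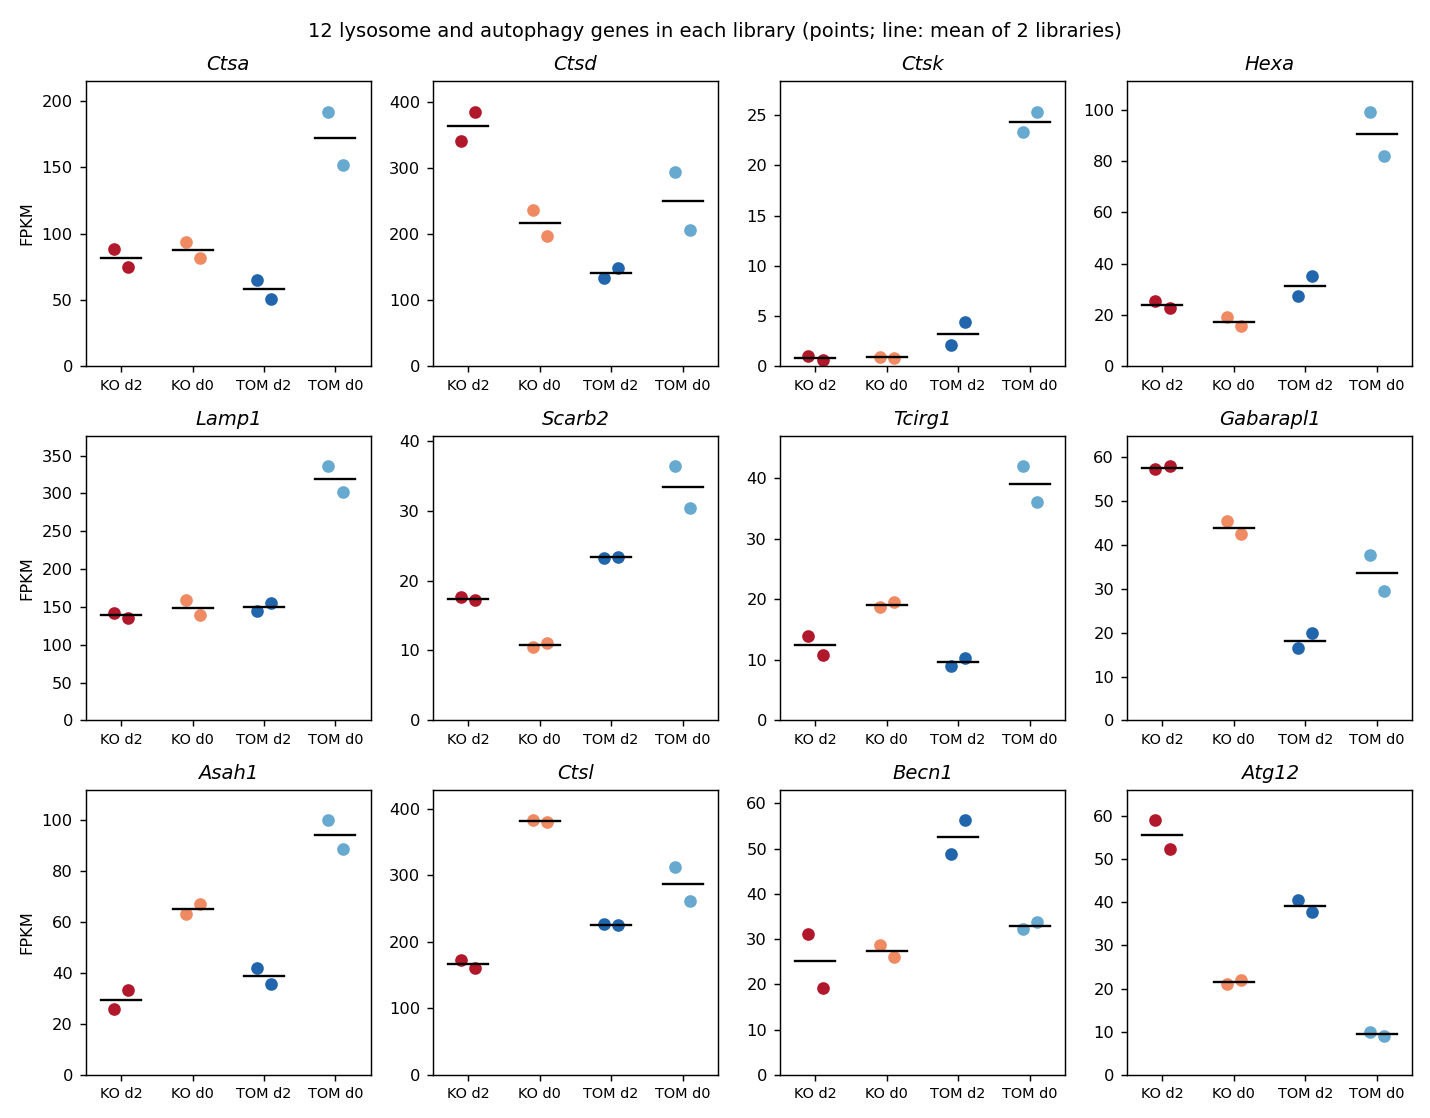
FPKM (vertical axes, from 0) of 12 genes in each library, with a point for each library and a line for the mean of 2, from left to right the libraries labelled Ddx6-KO at day 2 and day 0 and those of TOM at day 2 and day 0. The TOM day 0 pair is the highest for Ctsa, Ctsk, Hexa, Lamp1, Scarb2, Tcirg1 and Asah1, and Ctsd and Gabarapl1 are highest in Ddx6-KO at day 2.

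Among the other hydrolases, Hexa had the largest difference at day 0. It encodes the alpha subunit of beta-hexosaminidase, which degrades the ganglioside GM2. Hexa lies at chr9:59539540-59565109 (plus strand). Its level was 25.2 and 22.8 FPKM in the libraries labelled Ddx6-KO at day 2 and 19.2 and 15.4 FPKM in those at day 0, against 27.4 and 35.1 FPKM in TOM at day 2 and 99.5 and 82.3 FPKM in TOM at day 0. Both TOM day 0 libraries stood far above the other 6. Hexa was 5.03-fold lower in Ddx6-KO at day 0 (log2 -2.33, standard error 0.19, adjusted p = 0.000675, called in all 19 alternatives). Between day 2 and day 0, its log2 difference was 0.46 in Ddx6-KO (adjusted p = 0.178), while it fell 2.86-fold in TOM cells (log2 -1.52, standard error 0.19, adjusted p = 0.0034). The changes differed by 1.97 (standard error 0.27, adjusted p = 0.00952), in 16 of 18 alternatives too, and failed without Ddx6-KO day 0 library 2 (adjusted p = 0.0521).

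Gaa and Asah1 fell in TOM without a call on the difference between the lines. Gaa, the acid alpha-glucosidase that breaks down glycogen, had 20.7 and 24.6 FPKM in the libraries labelled Ddx6-KO at day 2 and 39.2 and 36.2 FPKM in those at day 0. TOM libraries had 10.9 and 16.7 FPKM of Gaa at day 2 and 47.6 and 46.8 FPKM at day 0. Day 2 was below day 0 in both lines, with a log2 difference of -0.72 in Ddx6-KO that missed the threshold (adjusted p = 0.0728) and a 3.32-fold fall in TOM (log2 -1.73, standard error 0.21, adjusted p = 0.00303). Asah1, the acid ceramidase, had 25.8 and 33.1 FPKM in Ddx6-KO at day 2 and 63.0 and 66.96 FPKM at day 0, against 41.7 and 35.5 FPKM in TOM at day 2 and 99.8 and 88.7 FPKM at day 0. It was the 1 gene of the set that fell in both lines, by 2.18-fold in Ddx6-KO (log2 -1.13, standard error 0.17, adjusted p = 0.0068) and 2.41-fold in TOM (log2 -1.27, standard error 0.17, adjusted p = 0.00447). The Ddx6-KO call of Asah1 failed without either Ddx6-KO day 0 library (adjusted p up to 0.0640).

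Grn and Psap encode precursors that are cut into smaller proteins in the lysosome, granulins and the saposins that help sphingolipid hydrolases. Grn had 72.2 and 83.2 FPKM in the libraries labelled Ddx6-KO at day 2 and 82.3 and 67.1 FPKM in those at day 0, against 46.3 and 52.7 FPKM in TOM at day 2 and 83.6 and 87.3 FPKM at day 0. The TOM day 2 pair was the lowest of the 4. Grn fell in TOM (log2 -0.78, standard error 0.15, adjusted p = 0.0257) and was higher in Ddx6-KO at day 2 (log2 0.64, standard error 0.15, adjusted p = 0.0287). Each call failed when any 1 of the 4 libraries it compares was left out (adjusted p up to 0.158 and 0.139), and the day 2 difference was 0.01 after rescaling on protein-coding genes. Psap had 234 and 238 FPKM in Ddx6-KO at day 2 and 160 and 140 FPKM at day 0, against 205 and 218 FPKM in TOM at day 2 and 340 and 245 FPKM at day 0. It was lower in Ddx6-KO at day 0 (log2 -0.95, standard error 0.17, adjusted p = 0.0156), without a call when either Ddx6-KO day 0 library was left out (adjusted p up to 0.121). Its changes, 0.66 in Ddx6-KO and -0.45 in TOM, differed by 1.11 with an adjusted p of 0.0557.

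Gusb and Naglu act on glycosaminoglycans. Gusb, beta-glucuronidase, had 6.99 and 8.48 FPKM in the libraries labelled Ddx6-KO at day 0, against 16.9 and 13.5 FPKM in TOM (log2 -0.89, standard error 0.20, adjusted p = 0.0293). At day 2 it had 6.59 and 8.198 FPKM in Ddx6-KO, against 10.2 and 10.6 FPKM in TOM, a log2 difference of -0.45 that missed the threshold. All 4 libraries labelled Ddx6-KO were below all 4 of TOM. Naglu, which removes N-acetylglucosamine from heparan sulfate, had 5.30 and 7.80 FPKM in Ddx6-KO at day 2, against 2.37 and 2.91 FPKM in TOM (log2 1.04, standard error 0.25, adjusted p = 0.0279). At day 0 the lines overlapped, at 7.22 and 6.12 FPKM in Ddx6-KO and 7.20 and 5.36 FPKM in TOM. Gusb failed without either Ddx6-KO day 0 library, TOM day 0 library 1 or either TOM day 2 library (adjusted p up to 0.177), and Naglu without either Ddx6-KO day 0 library, Ddx6-KO day 2 library 2 or either TOM day 2 library (up to 0.120). Glb1 (8.87 to 17.4 FPKM), a beta-galactosidase gene that overlaps Tmppe on the same strand, and Lipa (14.7 to 25.3 FPKM), the lysosomal acid lipase, had no call in any comparison.

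Lamp1 and Lamp2 are the abundant glycoproteins of the lysosomal membrane. Lamp1 (chr8:13159161-13175338, plus strand) had 142 and 135 FPKM in the libraries labelled Ddx6-KO at day 2 and 159 and 139 FPKM in those at day 0. TOM libraries had 144 and 155 FPKM at day 2 and 336 and 302 FPKM at day 0. The TOM day 0 pair stood alone, and the other 6 libraries lay between 135 and 159 FPKM.

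Lamp1 was thus 2.13-fold lower in Ddx6-KO at day 0 (log2 -1.09, standard error 0.13, adjusted p = 0.0035, called in all 19 alternatives), and at day 2 the difference between the lines was -0.11 (adjusted p = 0.602). During induction, its log2 change was -0.10 in Ddx6-KO (adjusted p = 0.682), and it fell 2.12-fold in TOM cells (log2 -1.09, standard error 0.13, adjusted p = 0.00316, called in 17 of 19). The difference of changes was 0.99 (standard error 0.19, adjusted p = 0.0313), and it was called without TOM day 0 library 2 and failed without each of the other 7 libraries (adjusted p up to 0.152). It was called in 5 of 18 alternatives and was 0.36 with protein-coding genes rescaled. Lamp2 had 174 and 168 FPKM in Ddx6-KO at day 0, against 251 and 228 FPKM in TOM (log2 -0.48, standard error 0.12, adjusted p = 0.0408), a call that held without TOM day 0 library 2 and failed without each of the other 7 (adjusted p up to 0.222). At day 2 it had 175 and 174 FPKM in Ddx6-KO, against 182 and 185 FPKM in TOM.

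Scarb2 encodes LIMP-2, the receptor that carries glucocerebrosidase to the lysosome (chr5:92441314-92506833, minus strand). Its level was 17.7 and 17.2 FPKM in the libraries labelled Ddx6-KO at day 2 and 10.4 and 11.1 FPKM in those at day 0, against 23.2 and 23.4 FPKM in TOM at day 2 and 36.4 and 30.4 FPKM in TOM at day 0. The lines did not overlap at either time, which is common by the shares above, and they were closer at day 2. Scarb2 was 2.92-fold lower in Ddx6-KO at day 0 (log2 -1.55, standard error 0.15, adjusted p = 0.00137, called in all 19 alternatives) and rose during induction in Ddx6-KO (log2 0.65, standard error 0.15, adjusted p = 0.0348). The rise was called in 6 of 19 alternatives and failed without each of the Ddx6-KO and TOM day 2 libraries and the Ddx6-KO day 0 libraries (adjusted p up to 0.192). Its changes differed by 1.14 (standard error 0.21, adjusted p = 0.0277), with a call without TOM day 0 library 2 and none without each of the other 7 (adjusted p up to 0.125). Mcoln1, a calcium channel of the lysosome, varied between 5.16 and 19.6 FPKM with wide spread inside 3 of the 4 pairs and had no call.

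The proton pump was represented by 4 genes, of which Tcirg1 was called. Tcirg1 encodes the a3 subunit of the membrane sector, known for acid secretion by osteoclasts (chr19:3896050-3907133, minus strand). It had 13.9 and 10.9 FPKM in the libraries labelled Ddx6-KO at day 2 and 18.7 and 19.6 FPKM in those at day 0, against 8.92 and 10.4 FPKM in TOM at day 2 and 42.1 and 36.2 FPKM in TOM at day 0. The TOM day 0 pair stood above the other 6. During induction, the log2 difference of Tcirg1 was -0.60 in Ddx6-KO (adjusted p = 0.0776), and it fell 3.77-fold in TOM (log2 -1.91, standard error 0.18, adjusted p = 0.000899, called in all 19 alternatives). It was lower in Ddx6-KO at day 0 (log2 -0.99, standard error 0.18, adjusted p = 0.0141), and its changes differed by 1.32 (standard error 0.25, adjusted p = 0.0315). The day 0 call failed without either Ddx6-KO day 0 library or TOM day 0 library 1 (adjusted p up to 0.1003), and the difference of changes was called without Ddx6-KO day 2 library 2 and failed without each of the other 7 (up to 0.131). Atp6v0d1 (42.0 to 60.3 FPKM), Atp6v1h (15.02 to 30.7 FPKM) and Atp6ap1 (41.4 to 86.0 FPKM), a membrane subunit, a subunit of the catalytic sector and an accessory subunit, had no call.

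**Figure D4:**
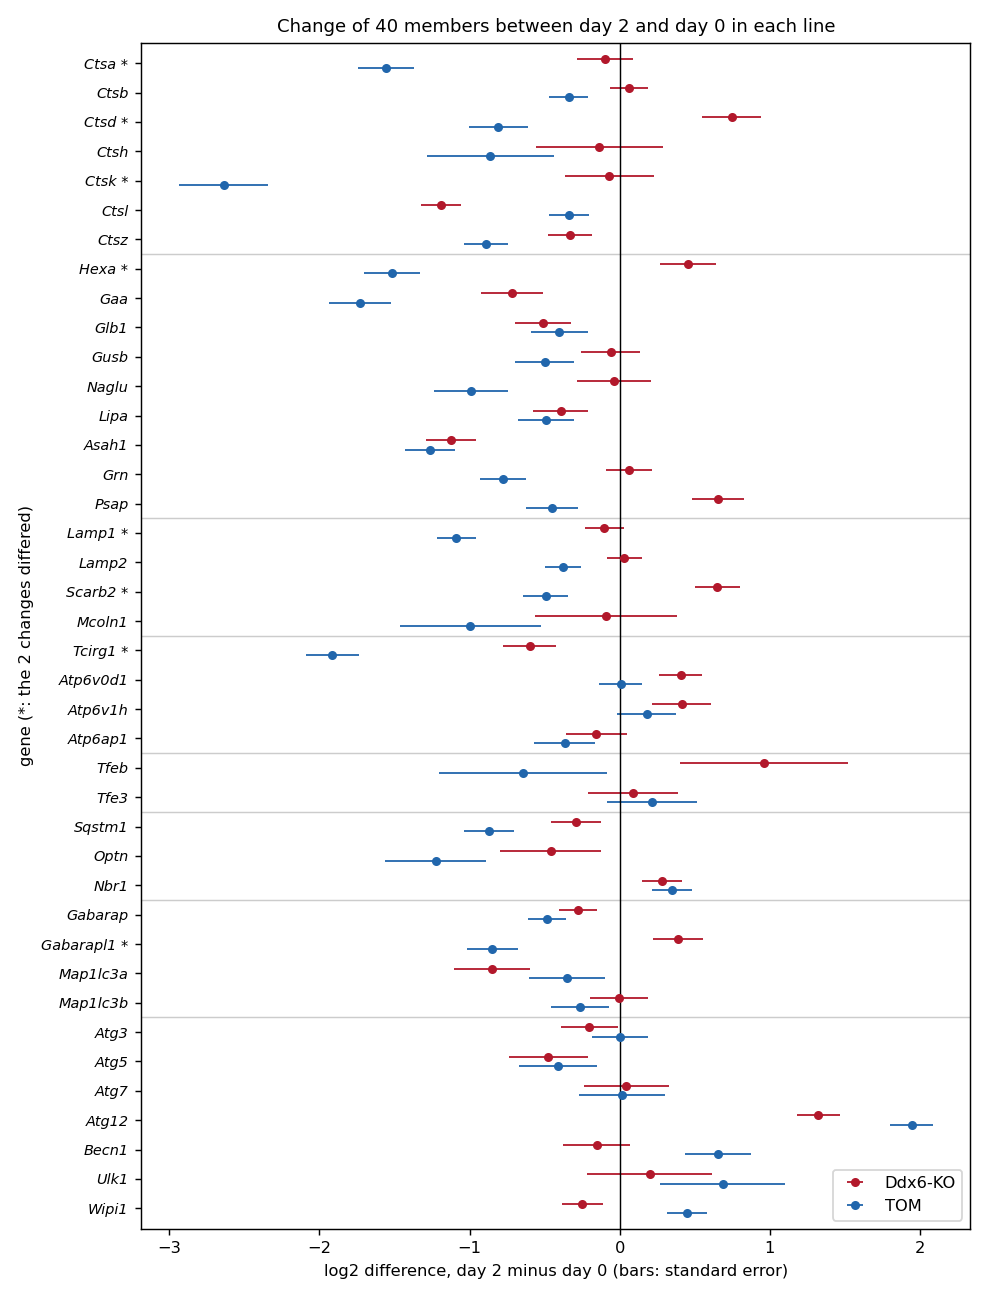
The log2 difference of FPKM + 1 between day 2 and day 0 (horizontal axis, bars are standard errors) is shown for 40 genes (rows, by role) in Ddx6-KO (red) and TOM (blue) libraries, with an asterisk for the 8 genes whose 2 changes differed. Blue points lie left of red ones for 22 of the 24 lysosomal genes, and for Atg12 both lie far to the right. The count is by sign in FPKM as deposited, and scaling moves the changes. The share of all genes with that sign was not computed, and their median difference of changes was 0.04.

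The transcription factors of the pathway were not called. Tfeb had 11.2 and 4.73 FPKM in the libraries labelled Ddx6-KO at day 2 and 3.20 and 3.37 FPKM in those at day 0, against 0.833 and 5.003 FPKM in TOM at day 2 and 4.27 and 4.09 FPKM at day 0. The libraries of each day 2 pair lay far apart, and no comparison of Tfeb passed the threshold (lowest adjusted p 0.142). Tfe3 ran from 9.64 to 17.96 FPKM. These are RNA levels, and both proteins are known to be regulated by their entry into the nucleus, which was not measured.

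The core E-box CACGTG, which is palindromic and so reads the same on both strands, was looked for in the RefSeq promoters of GRCm38.p6, 250 bases before to 50 bases after each gene's start. It was present in 12 of the 34 genes of the set with a promoter in the table (35.3%) and in 8.09% of all 27025 genes there, or 7.15% of all promoters. The longer palindrome TCACGTGA, which contains CACGTG, was in 5 of the 34 (14.7%) and in 304 of the 27025 genes there, or 0.974% of all promoters. The promoters below are shown because they hold the longer motif or, for Lamp1, the most copies of the short one. Capitals mark CACGTG.
Lamp1, 4 copies, chr8:13159090-13159161, plus strand: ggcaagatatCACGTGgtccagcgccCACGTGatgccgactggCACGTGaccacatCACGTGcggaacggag
Ctsa, 2 copies, chr2:164833751-164833793, plus strand: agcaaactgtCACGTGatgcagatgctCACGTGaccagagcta
Ctsd, chr7:142387910-142387935, minus strand: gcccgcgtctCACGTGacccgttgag
Mcoln1, 2 copies, chr8:3500438-3500489, plus strand: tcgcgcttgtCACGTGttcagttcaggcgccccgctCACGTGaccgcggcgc
Atp6v0d1, chr8:105566052-105566077, minus strand: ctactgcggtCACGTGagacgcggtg
Atg3, 2 copies, chr16:45158725-45158773, plus strand: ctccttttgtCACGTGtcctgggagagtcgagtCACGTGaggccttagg

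Ctsd holds another copy of CACGTG outside the stretch shown. Of the 12 genes with CACGTG, 3 fell and 0 rose in TOM during induction, against 7 and 0 of the 21 tested genes whose promoter lacked it. At day 0, 2 of the 12 and 8 of the 21 were lower in Ddx6-KO, and the difference of changes was called higher for 3 of the 12 and 5 of the 21. Lamp1, Ctsa and Ctsd were called in the difference of changes, and Mcoln1, Atp6v0d1 and Atg3, which also hold CACGTG, were called in no comparison. A match describes the letters in this window and is not evidence of binding.

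Autophagy receptors tether cargo to Atg8-family proteins. Sqstm1, p62, had 162 and 127 FPKM in the libraries labelled Ddx6-KO at day 2 and 176 and 175 FPKM in those at day 0, against 114 and 90.3 FPKM in TOM at day 2 and 188 and 186 FPKM at day 0. Day 2 was below day 0 in both lines, and the TOM day 2 pair was lowest. Sqstm1 had a log2 difference of -0.29 in Ddx6-KO (adjusted p = 0.33) and fell 1.83-fold in TOM (log2 -0.87, standard error 0.17, adjusted p = 0.0223). The difference of changes, 0.58, missed the threshold (adjusted p = 0.247). The TOM call failed without any 1 of the 4 day 0 libraries or TOM day 2 library 2 (adjusted p up to 0.130). Optn, from 1.16 to 7.59 FPKM, and Nbr1, from 30.9 to 43.1 FPKM, had no call.

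In the Atg8 family, Gabarapl1 was the member called (chr6:129533160-129542346, plus strand). It had 57.3 and 58.0 FPKM in the libraries labelled Ddx6-KO at day 2 and 45.4 and 42.4 FPKM in those at day 0, against 16.4 and 19.9 FPKM in TOM at day 2 and 37.8 and 29.4 FPKM in TOM at day 0. The lines did not overlap at either time, which is common by the shares above, and the gap between them was wider at day 2. At day 2, Gabarapl1 was 3.07-fold higher in Ddx6-KO (log2 1.62, standard error 0.17, adjusted p = 0.00148), in all 19 alternatives too. During induction, its log2 difference was 0.39 in Ddx6-KO (adjusted p = 0.202) and it fell in TOM (log2 -0.85, standard error 0.17, adjusted p = 0.0253), and the changes differed by 1.23 (standard error 0.24, adjusted p = 0.0329). The fall failed without either Ddx6-KO day 0 library, TOM day 0 library 1 or either TOM day 2 library (adjusted p up to 0.152), and the difference of changes held without TOM day 0 library 2 and failed without each of the other 7 (up to 0.147). Gabarap (137 to 238 FPKM), Map1lc3a (9.16 to 21.1 FPKM) and Map1lc3b (20.02 to 34.3 FPKM) were called in no comparison.

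Among the 7 genes of autophagosome formation, 1 rose and 0 fell in TOM and in Ddx6-KO, 2 were higher in Ddx6-KO at day 0 and 1 was lower at day 2. Over all genes, 3.40% rose and 3.74% fell in TOM, and 4.80% rose and 5.85% fell in Ddx6-KO. Between the lines, 6.55% were higher in Ddx6-KO at day 0 and 8.58% lower at day 2. With 7 genes, the counts are too small to be read against these shares. Atg12, a ubiquitin-like protein that is joined to Atg5, had 59.0 and 52.3 FPKM in the libraries labelled Ddx6-KO at day 2 and 21.1 and 22.1 FPKM in those at day 0. TOM libraries had 40.6 and 37.8 FPKM at day 2 and 9.96 and 8.94 FPKM at day 0. Its 4 groups did not overlap, with day 2 above day 0 and Ddx6-KO above TOM.

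Atg12 was the 1 gene of the set that rose in both lines, 2.50-fold in Ddx6-KO (log2 1.32, standard error 0.14, adjusted p = 0.00176) and 3.85-fold in TOM (log2 1.94, standard error 0.14, adjusted p = 0.000366). It was 2.17-fold higher in Ddx6-KO at day 0 (log2 1.11, standard error 0.14, adjusted p = 0.0041), while at day 2 its log2 difference was 0.49 with an adjusted p of 0.05001, just outside the threshold. The call of its rise in Ddx6-KO was lost after rescaling on protein-coding genes (adjusted p = 0.0533), and its other 2 calls were made in all 19 alternatives. Wipi1, which binds phosphoinositides on the forming membrane, had 31.4 and 31.7 FPKM in Ddx6-KO at day 0, against 13.7 and 15.5 FPKM in TOM (log2 1.06, standard error 0.14, adjusted p = 0.00427, all 19 alternatives). At day 2 it had 27.0 and 25.9 FPKM in Ddx6-KO, against 20.3 and 20.3 FPKM in TOM, without a call.

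Becn1 encodes Beclin 1, a subunit of the phosphatidylinositol 3-kinase complex that starts the autophagosome. It had 31.0 and 19.2 FPKM in the libraries labelled Ddx6-KO at day 2, against 48.9 and 56.2 FPKM in TOM, and was 2.101-fold lower (log2 -1.07, standard error 0.22, adjusted p = 0.0174). At day 0 the log2 difference was -0.26 (28.6 and 26.0 FPKM in Ddx6-KO, against 32.1 and 33.7 FPKM in TOM). The day 2 call failed without either TOM day 2 library (adjusted p up to 0.0895). Atg3 (13.4 to 21.4 FPKM) and Atg7 (6.59 to 11.5 FPKM), enzymes of the conjugation systems, Atg5 (3.05 to 6.93 FPKM), the partner of Atg12, and Ulk1 (2.91 to 15.5 FPKM), a kinase at the start of the pathway, were called in no comparison.

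A wider list of 130 lysosome and autophagy genes outside the set, 126 of them tested, was read for the same comparisons. During induction, 7 of the 126 fell and 4 rose in the libraries labelled Ddx6-KO, and 13 fell and 3 rose in TOM cells, against the backgrounds of 5.85% lower and 4.80% higher in Ddx6-KO and 3.74% and 3.40% in TOM. The difference of changes was higher for 5 and lower for 1, against 2.02% and 2.17% of all genes. Its median was 0.21, against 0.04 for all genes. At day 0, 9 were higher and 6 lower in Ddx6-KO. At day 2, 21 were higher and 7 lower, against 10.4% higher and 8.58% lower over all genes. The day 0 counts and the falls in Ddx6-KO were near the shares over all genes given above (6.55% higher and 4.81% lower at day 0). Among the 33 other hydrolases and delivery factors, 9 fell and 1 rose in TOM, with a median log2 difference of -0.66, against 3.74% lower, 3.40% higher and a median of 0.03 over all genes.

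Igf2r, the mannose 6-phosphate receptor that delivers hydrolases, had 35.4 and 36.4 FPKM in the libraries labelled Ddx6-KO at day 2 and 32 and 30.8 FPKM at day 0, against 49.4 and 50.1 FPKM in TOM at day 2 and 90.7 and 81.6 FPKM at day 0. As for Lamp1, the TOM day 0 pair was the highest. Igf2r was lower in Ddx6-KO at day 0 (log2 -1.43, adjusted p = 0.000934), in all 19 alternatives too. Its changes differed between the lines by 0.96 (adjusted p = 0.0275), a call that held without TOM day 0 library 2 and failed without each of the other 7 libraries (adjusted p up to 0.133).

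Man2b1, a lysosomal alpha-mannosidase, was high in Ddx6-KO at day 2. It had 36.4 and 39.4 FPKM in the libraries labelled Ddx6-KO at day 2 and 13.9 and 12.7 FPKM in those at day 0, against 5.86 and 4.77 FPKM in TOM at day 2 and 9.43 and 7.49 FPKM at day 0. Its changes differed by 2.03 (standard error 0.25, adjusted p = 0.00714, in all 18 alternatives). Bnip3, a mitophagy receptor, went the other way, with 42.5 and 39.8 FPKM in Ddx6-KO at day 2 and 99.1 and 94.4 FPKM at day 0, against 43.2 and 39.1 FPKM in TOM at day 2 and 17.5 and 15.8 FPKM at day 0. Its changes differed by -2.47 (standard error 0.19, adjusted p = 0.00107, in all 18 alternatives). Mitf, the relative of Tfeb and Tfe3, had 8.16 and 8.32 FPKM in Ddx6-KO at day 0, against 2.59 and 2.78 FPKM in TOM (log2 1.33, standard error 0.20, adjusted p = 0.00739), and 5.95 and 6.40 FPKM at day 2, against 2.06 and 2.70 FPKM in TOM (log2 1.09, standard error 0.20, adjusted p = 0.0111). The lines did not overlap at either time, which is common by the shares above. The day 0 call failed without either Ddx6-KO day 0 library (adjusted p up to 0.0719) and the day 2 call without TOM day 2 library 1 (0.0623).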

How the data were processed

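Total RNA of 3T3L1 cells was sequenced in 8 stranded libraries, 2 in each of 4 groups. Per the labels, the authors mapped reads with TopHat2 2.1.0 on GRCm38/mm10, and Cufflinks 2.2.1 gave the deposited FPKM per gene. The annotation release was not given in the sources used here, nor was the use of strand in counting. GENCODE M21 gave symbols to 45225 of 46073 identifiers and the positions, and RefSeq (GRCm38.p6) the promoters. Columns carry a group and a number that the labels do not always share, so library 1 and library 2 follow the column numbers.

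Values were taken to log2(FPKM + 1), and the 15811 genes that reached 1 FPKM in 2 or more libraries entered limma 3.58.1 (R 4.3.3), which fitted 1 mean per group with a variance trend. Adjusted p are Benjamini-Hochberg values over all genes of a comparison, with 0.05 as the threshold. Exons of 15 members overlap another gene, 3 on the same strand. Approximate depth, 1500000 to 21400000 fragments, came from the spacing of low FPKM values and limits the precision of low genes such as Ctsk. The titles number the libraries, and the methods mention triplicates for expression analyses in general, but neither says whether the sequenced libraries of a group were grown as separate cultures. The p-values therefore measure the spread between these libraries, which may be technical.

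The members and lists were chosen with earlier results of these data known. All library values were to be printed for the 20 called members with the smallest adjusted p, for Lamp1 and Sqstm1, and for up to 3 genes of each wider list with the smallest p in a comparison. Lamp2, Tfeb and Ctss, and the choice among the wider genes, were picked with their values in view. The 19 alternatives used another pseudocount (0.1 or 5), filter, scaling, variance model or set of libraries, the replicate block (added after seeing the data), and leaving out each library, where a lone library was assumed to vary like the other groups. Figures were made with Python 3.11.15 and matplotlib 3.10.9.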

Additional observations from a re-analysis of the deposited data

Results flagged for a closer look

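For 8 genes, the change during induction in the libraries labelled Ddx6-KO differed from that in TOM by the test of the difference itself (limma, adjusted p under 0.05). The difference, Ddx6-KO minus TOM on the log2 scale, was 1.97 for Hexa, 2.57 for Ctsk, 1.55 for Ctsd, 1.46 for Ctsa, 1.14 for Scarb2, 0.99 for Lamp1, 1.32 for Tcirg1 and 1.23 for Gabarapl1. The low start of Ctsk in Ddx6-KO left no room for a fall like that in TOM, so its value was bound to be above 0. For Hexa, Ctsk, Ctsa, Lamp1, Scarb2 and Tcirg1, the TOM day 0 pair was the highest of the 4 pairs, and the same 2 libraries enter the TOM change and the day 0 comparison. A high TOM day 0 pair raises the difference by itself, so this pattern follows in part from how the genes were picked. The share of all genes with that pair highest was not computed. The part of that pair in the result was not tested with other libraries. Groups of 2 libraries are too small for a test of outlying samples.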

How the results depend on the processing

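The 42 calls of members kept their direction in all repeats under alternative settings, of which 572 were also past the threshold and 218 no longer. The counts of members called moved more than single values. Rescaling on protein-coding genes gave 7 for the TOM change (12 as reported), 3 for the difference of changes (8 as reported, now 1 higher and 2 lower), 6 for Ddx6-KO against TOM at day 0 (12 as reported) and 11 at day 2 (6 as reported, now 1 higher and 10 lower). TPM rescaling gave 11 for the Ddx6-KO change (4 as reported, now 1 higher and 10 lower), 2 for the difference of changes and 7 at day 0. Fitting each comparison to its own 4 libraries gave 2 for the TOM change and 2 at day 2, and 3 for the Ddx6-KO change and 8 at day 0. Without a filter, the count was 2 for the difference of changes and 3 at day 2, and 2 for the difference of changes under median-ratio scaling or with no variance trend. The causes of these moves were not tested, and the fits to 4 libraries also had fewer degrees of freedom.

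With 1 library left out, counts ran from 2 to 6 for the Ddx6-KO change, from 8 to 14 for the TOM change, from 0 to 7 for the difference of changes, from 6 to 13 at day 0 and from 3 to 7 at day 2. The 0 was without Ddx6-KO day 0 library 2, with 11 members higher and 2 lower at an unadjusted p under 0.05. A replicate block by column number gave 4 for the difference of changes, 3 for the Ddx6-KO change, 10 for the TOM change, 10 at day 0 and 7 at day 2. Deviations of same-numbered libraries were not correlated above 0.1 between groups (-0.096 to 0.067). The column numbers do not match all replicate numbers of the titles, so this cannot show whether libraries shared a culture or day. For the same reason, no block by label number could be fitted. With about 2 to 7 fragments of Ctsk in each library labelled Ddx6-KO, a change of that gene there could not be resolved.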
